A study of Mus musculus with 17 samples.

Results

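The genes described here are 36 genes of glycolysis and of the response to low oxygen, read from 17 RNA-seq libraries of pancreatic stellate cells of the mouse. They were taken by symbol from a list of glycolytic genes and targets of the hypoxia-inducible factors (HIF), a rule that uses no measured value, although the list was drawn up with earlier results of these data known. All 36 of 36 were found among the 35896 gene IDs of the files, and all 36 were among the 13923 genes that passed the filter on low counts. By role they comprised 4 transporters, 17 glycolytic enzymes, 3 regulators of flux, 2 HIF alpha subunits and 10 other HIF targets.

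Pancreatic stellate cells are the cells of the pancreas that turn into fibroblasts after injury and in tumours. The cells came from 2 lines of wild-type C57BL/6J mice, called PSC4 and PSC5, that were embedded in Matrigel (an extracellular matrix gel) for 4 days. The 5 control libraries had control medium, the 4 TGF-beta libraries had control medium with 20 ng/mL TGF-beta, the 4 CM libraries had medium conditioned by pancreatic tumour organoids, and the 4 libraries of CM with neratinib had such medium plus neratinib, which blocks the kinases of ERBB receptors, at 300 nM. PSC4 was at passage 23 to 25 and PSC5 at passage 27 or 28, and a replicate number stood for 1 passage of a line. Each line is 1 culture kept over many passages, the labels do not say whether replicates were separate cultures, and adjusted p-values therefore measure only the spread between these libraries, which may be technical. The labels of the conditioned media carry a code, T6 for replicate 2 and T8 for replicate 1, and the oxygen level of the cultures was not given in the sources used here.

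Glycolysis splits glucose into pyruvate in the cytosol, and lactate dehydrogenase turns pyruvate into lactate, which leaves the cell through monocarboxylate transporters. HIF is a pair of an alpha and a beta subunit. Prolyl hydroxylases mark the alpha subunit for destruction when oxygen is present, and when it accumulates the pair binds DNA and raises transcription of glycolytic genes, of angiogenic factors and of its own hydroxylases. The level of the alpha subunit is set mainly at the protein, which these data do not measure.

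Library totals lay between 22168953 and 29421447 counts. The 12 fibroblast and stellate markers summed to 5938 to 7598 CPM in control, where CPM are counts scaled to an equal library total, 10405 to 21050 in TGF-beta, 6150 to 7330 in CM and 4706 to 7450 in CM with neratinib. In bulk libraries fewer cells of a type and less RNA per cell cannot be told apart. The 14 epithelial markers summed to 74.4 to 89.6 CPM in control, 83.5 to 142 in TGF-beta, 66.6 to 218 in CM and 38.9 to 352 in CM with neratinib, with Tff1 and Tff2 at totals of 1 and 5 counts over all 17 libraries. Krt8, one of them, had at most 2 counts in control and 25 in TGF-beta. In CM it had 12, 1233, 147 and 1173 counts, and with neratinib 0, 972, 219 and 2052, each for PSC4 replicates 1 and 2 and then PSC5 replicates 1 and 2, and its part in the results was not tested. The immune markers Ptprc, Adgre1, Cd3e and Itgam had at most 3 counts in every library, and Cd68 had 289 counts in neratinib PSC4 replicate 1 and 34 to 73 in the others. Over all tested genes, the 3 libraries labelled PSC4 replicate 1 deviated from their group means with PSC5 (median correlation 0.159 to 0.240) and against the other PSC4 libraries (median correlation -0.437 to -0.242), so calls of members that are lost without them are named with the values.

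In control medium the most abundant members per length were Gapdh, at 275 CPM per kilobase of exon, Pkm at 233 and Pgam1 at 177. The least abundant per length were Aldoc at 0.406, Slc2a3 at 0.492 and Ankrd37 at 0.624 CPM per kilobase. Length was that of all annotated exons of a gene joined and not of the transcripts made, so this order depends on annotation. By mean CPM alone, Pkm (1166), Gapdh (1137) and Eno1 (598) were highest, and Ankrd37 (0.960), Aldoc (1.33) and Slc2a3 (3.56) lowest. The control group had the lowest mean CPM of the 4 groups for 27 of the 36 members. The highest mean was that of TGF-beta for 16 members, that of CM with neratinib for 14, and that of control or CM for 3 each. Several glycolytic genes, Gapdh among them, have near-identical processed pseudogenes. The authors' counts are estimates by the program Salmon, and how it divided reads between a gene and such copies was not examined here.

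**Figure D1:**
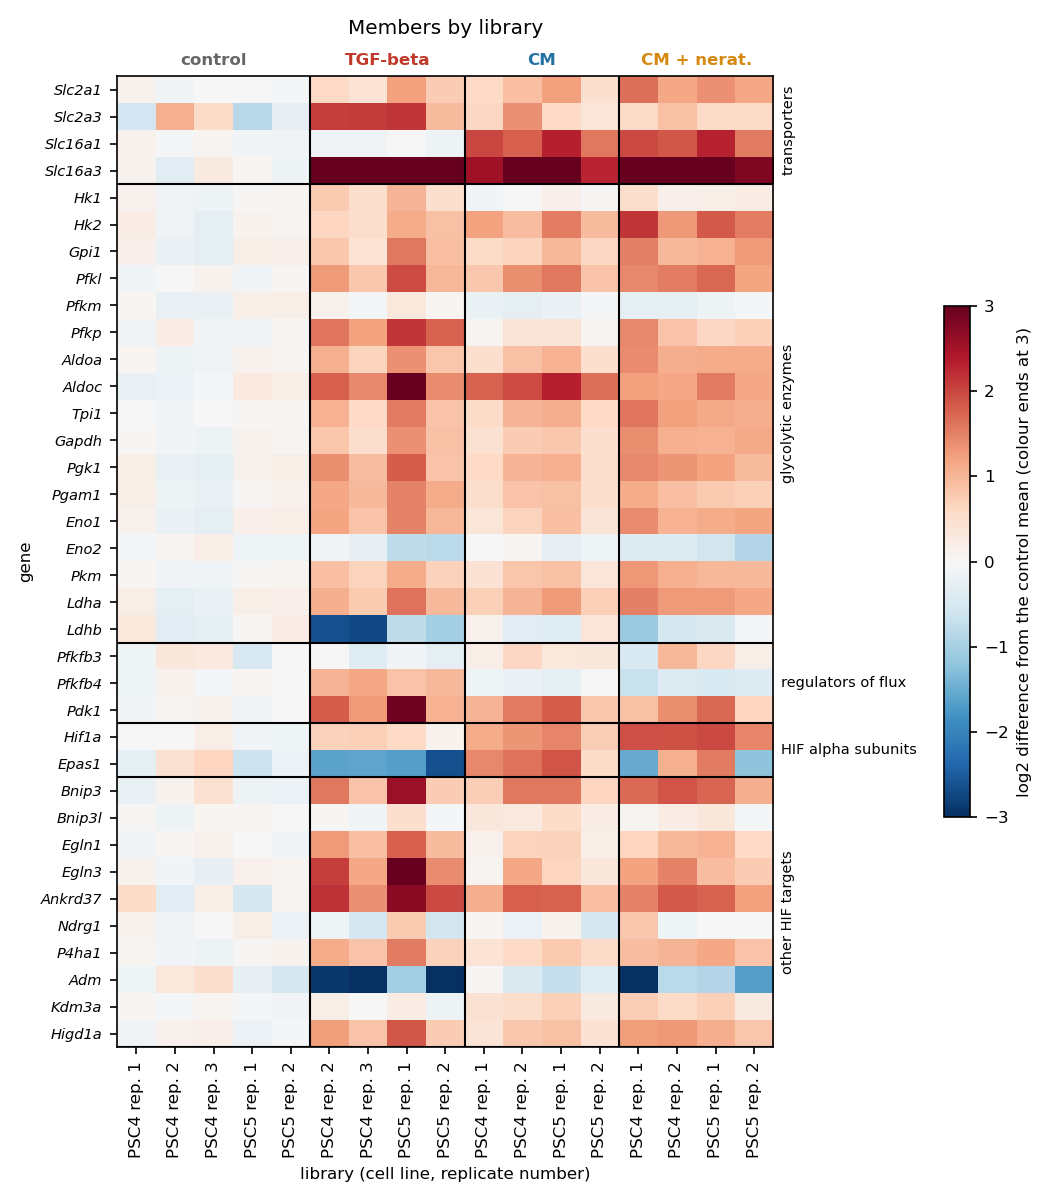
Each cell is the log2 difference of 1 member (rows, by role) in 1 library (columns, by group) from the mean of the 5 control libraries, with colours ending at 3. Most rows are red in all 3 treated groups, Slc16a3 most of all, Slc16a1 is red in CM and CM with neratinib and near white in TGF-beta, and Ldhb, Epas1 and Adm are blue in TGF-beta.

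The question of the first comparison was what TGF-beta, the factor that turns stellate cells into contractile fibroblasts, did to these genes. TGF-beta raised 26 of the 36 members and lowered 4, where a gene is called when edgeR's quasi-likelihood test gave a Benjamini-Hochberg adjusted p under 0.05 over all tested genes. Of all 13923 tested genes, 40.2% were called, 19.7% as higher and 20.5% as lower. The median fitted log2 fold change was 1.00 over the members and -0.02 over all tested genes. Of the 17 glycolytic enzymes, 14 rose and 2, Eno2 and Ldhb, fell, and of the 10 other HIF targets, 6 rose and 1, Adm, fell. The TGF-beta and control libraries did not overlap in CPM for 27 members, against 32.7% of all tested genes.

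Among the transporters, Slc16a3, which encodes the lactate exporter MCT4, had the largest rise of any member. Library values are given for PSC4 and then PSC5, each in order of the replicate number. Slc16a3 stood at 5.05, 3.75, 5.67, 4.88 and 4.22 CPM in control and at 80.7, 52.5, 209 and 64.8 CPM in TGF-beta. The lowest TGF-beta library was far above the highest control library, and the PSC5 replicate 1 library was the highest. The fitted log2 fold change was 4.33 ± 0.44 (SE, adjusted p = 3.09e-06), and it was 3.82 without that library.

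Slc16a1, which encodes the related lactate transporter MCT1, did not pass the test. It was at 147, 133, 144, 128 and 125 CPM in control and at 127, 126, 134 and 121 CPM in TGF-beta, where the groups overlapped (log2 fold change -0.10 ± 0.15 (SE, adjusted p = 0.637)). The main glucose importer Slc2a1 (GLUT1) rose by 0.76 ± 0.17 (SE, adjusted p = 0.00222) and the high-affinity importer Slc2a3 (GLUT3) by 1.83 ± 0.32 (SE, adjusted p = 0.000335) on the log2 scale. The groups overlapped for Slc2a3, at 1.72 to 6.68 CPM in control, a 3.88-fold spread, and 6.10 to 14.1 CPM in TGF-beta. Slc2a3 was the scarcer of the pair, at 1.63 CPM per kilobase in TGF-beta against 50.3 for Slc2a1.

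**Figure D2:**
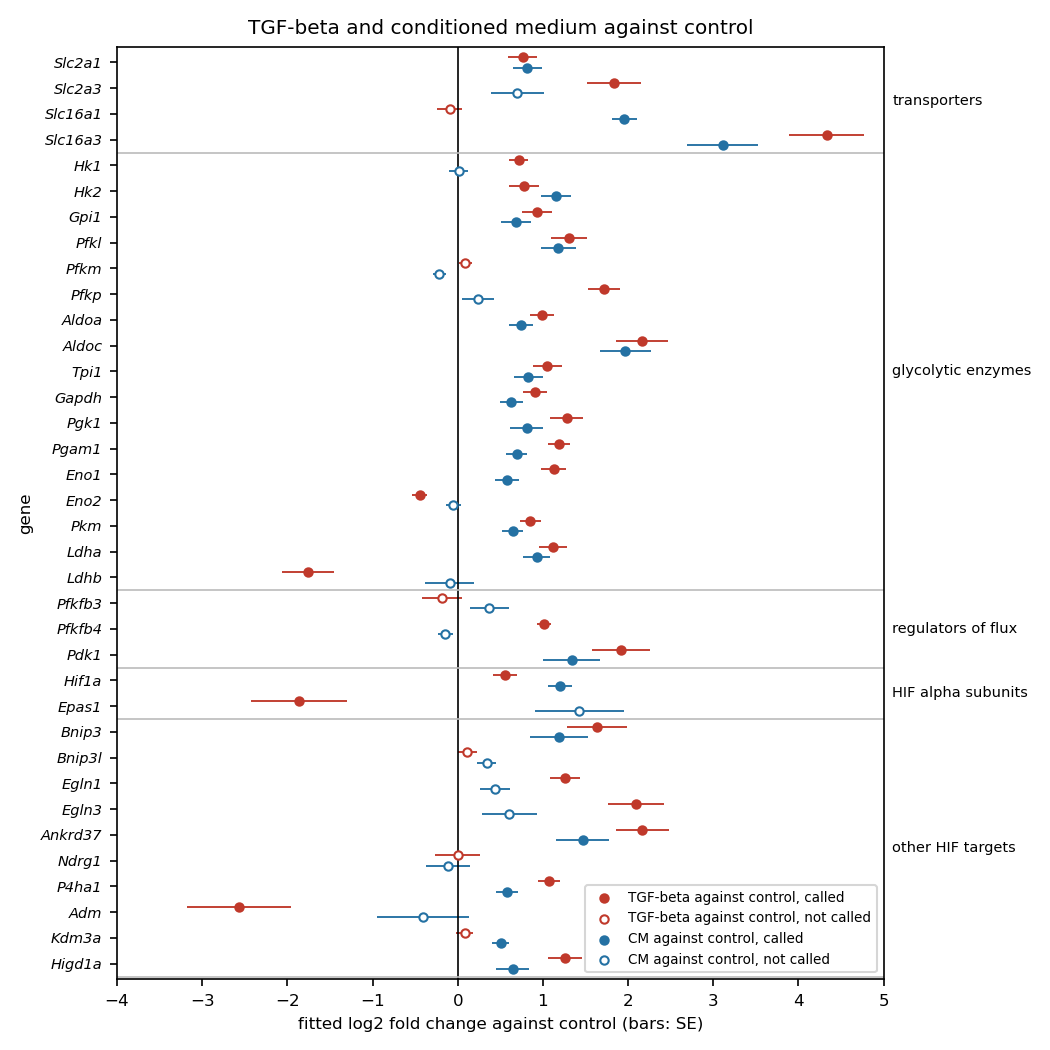
Points are fitted log2 fold changes against control with standard errors (horizontal axis) for each member (rows, by role), red for TGF-beta and blue for CM, and filled where the gene was called. Most points lie to the right of 0, with Slc16a3 farthest at 4.33 and 3.11, while Slc16a1 is higher in CM than in TGF-beta, and Pfkp, Hk1 and Pfkfb4 are higher in TGF-beta than in CM, by the direct test between these groups.

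The promoters of the monocarboxylate and lactate dehydrogenase pairs, whose members moved apart, and of Bnip3 are shown because HIF acts on its targets through such regions. RefSeq (GRCm38.p6) gave a promoter for 32 of the 36 members. Each sequence is the 250 bases upstream of the first listed start, 5′ to 3′ on the strand of the gene, with capitals for each match to ACGTG, the core of the HIF binding site, or to its reverse complement CACGT. The palindrome CACGTG, also the core of the E-box, counts on both strands.
Slc16a3: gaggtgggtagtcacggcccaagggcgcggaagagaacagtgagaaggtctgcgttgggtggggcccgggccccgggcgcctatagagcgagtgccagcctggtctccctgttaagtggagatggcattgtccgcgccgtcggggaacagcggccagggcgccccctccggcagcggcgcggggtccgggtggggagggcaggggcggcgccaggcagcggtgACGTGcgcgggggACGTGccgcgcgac
Slc16a1: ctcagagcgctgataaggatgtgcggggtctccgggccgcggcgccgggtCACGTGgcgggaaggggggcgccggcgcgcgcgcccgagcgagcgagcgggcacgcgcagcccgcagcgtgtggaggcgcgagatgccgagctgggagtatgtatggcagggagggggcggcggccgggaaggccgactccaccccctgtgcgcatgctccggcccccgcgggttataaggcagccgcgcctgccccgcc
Ldha: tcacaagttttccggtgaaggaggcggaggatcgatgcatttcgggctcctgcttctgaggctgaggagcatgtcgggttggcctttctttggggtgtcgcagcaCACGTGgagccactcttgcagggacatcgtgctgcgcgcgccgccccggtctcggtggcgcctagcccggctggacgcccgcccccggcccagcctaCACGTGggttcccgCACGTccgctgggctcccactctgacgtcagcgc
Ldhb: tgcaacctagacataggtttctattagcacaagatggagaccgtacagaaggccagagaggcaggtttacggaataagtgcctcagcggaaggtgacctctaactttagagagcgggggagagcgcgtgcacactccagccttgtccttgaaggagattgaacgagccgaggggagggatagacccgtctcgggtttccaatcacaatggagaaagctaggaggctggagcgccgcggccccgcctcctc
Bnip3: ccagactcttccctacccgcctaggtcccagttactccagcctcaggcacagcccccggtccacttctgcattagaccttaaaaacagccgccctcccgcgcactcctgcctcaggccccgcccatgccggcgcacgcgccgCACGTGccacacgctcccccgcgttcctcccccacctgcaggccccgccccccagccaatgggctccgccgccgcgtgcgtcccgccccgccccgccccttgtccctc
The windows are chr11:120948817-120949066 (plus strand) for Slc16a3, chr3:104638414-104638663 (plus strand) for Slc16a1, chr7:46845554-46845803 (plus strand) for Ldha, chr6:142507958-142508207 (minus strand) for Ldhb and chr7:138909507-138909756 (minus strand) for Bnip3.

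Counted over both strands, the window of Slc16a3 held 2 matches, that of Ldha 5, and those of Slc16a1 and Bnip3 2 each, from 1 CACGTG palindrome. The window of Ldhb held none. A match in at least 1 window was found for 17 of the 32 members (53.1%), for 7 of 17 enzymes and 5 of 8 other HIF targets with a promoter in the table. Of all genes with a listed promoter 18.5% had a match in at least 1 window. Counted by window, 20 of the 47 windows of the members (42.6%) held a match, against 16.6% of the 32851 windows of all genes. A match is a description of these letters and not a binding site, and both Slc16a3 and Slc16a1 held matches.

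Among the glycolytic enzymes, Aldoc, Pfkp and Pfkl had the largest rises with TGF-beta. Aldoc encodes the aldolase isoform best known from brain and was scarce, at 1.11, 1.14, 1.27, 1.62 and 1.49 CPM in control and 4.77, 3.72, 13.1 and 3.66 CPM in TGF-beta. The groups did not overlap, and the highest value was again PSC5 replicate 1 (log2 fold change 2.16 ± 0.30 (SE, adjusted p = 5.94e-05), or 1.64 without that library).

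Pfkp, the platelet-type phosphofructokinase, rose by 1.72 ± 0.19 (SE, adjusted p = 5.82e-06) and Pfkl, the liver type, by 1.31 ± 0.21 (SE, adjusted p = 0.000172) on the log2 scale, while the muscle type Pfkm did not pass (0.09 ± 0.07 (SE, adjusted p = 0.353)). Phosphofructokinase catalyses the committed step of glycolysis. The abundant enzymes of the lower pathway rose by similar amounts. Gapdh, the dehydrogenase that makes NADH, rose by 0.91 ± 0.14 (SE), Pgk1, which makes the first ATP, by 1.28 ± 0.19 (SE), Eno1, which makes phosphoenolpyruvate, by 1.13 ± 0.14 (SE), and Pkm, which makes pyruvate, by 0.85 ± 0.12 (SE), with adjusted p-values between 2.62e-05 and 0.000109. Ldha, the lactate dehydrogenase subunit that favours lactate, rose by 1.12 ± 0.16 (SE, adjusted p = 7.32e-05).

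Ldhb, the subunit that favours pyruvate, fell. It was at 41.2, 26.1, 27.2, 34.1 and 39.5 CPM in control and 5.22, 5.02, 19.4 and 16.2 CPM in TGF-beta. All 4 TGF-beta libraries lay below all 5 control libraries, and the PSC4 libraries were lower than the PSC5 libraries (log2 fold change -1.76 ± 0.31 (SE, adjusted p = 0.000407)). Eno2, the neuronal enolase, fell by less, at 65.1, 70.1, 76.0, 60.5 and 61.0 CPM in control and 61.4, 55.6, 39.3 and 37.7 CPM in TGF-beta, with overlapping groups (log2 fold change -0.44 ± 0.09 (SE, adjusted p = 0.000981)).

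Of the regulators of flux, Pdk1, a kinase that turns off pyruvate dehydrogenase and so keeps pyruvate out of mitochondria, was at 19.6, 21.8, 22.3, 19.4 and 20.4 CPM in control and 72.4, 50.1, 157 and 42.7 CPM in TGF-beta, without overlap. Its log2 fold change was 1.91 ± 0.34 (SE, adjusted p = 0.00042), or 1.41 without PSC5 replicate 1. Pfkfb4, an enzyme that makes and removes fructose-2,6-bisphosphate, the activator of phosphofructokinase, was at 15.8, 18.7, 17.1, 18.2 and 17.5 CPM in control and 35.6, 39.3, 31.7 and 34.5 CPM in TGF-beta (log2 fold change 1.01 ± 0.09 (SE, adjusted p = 4.96e-07)). Its TGF-beta values were tight, and PSC5 replicate 1 was the lowest of them. Pfkfb3, the paralogue with the stronger kinase activity, did not pass (-0.18 ± 0.23 (SE, adjusted p = 0.56)), with means of 19.7 ± 4.34 CPM in control (SD, n = 5) and 17.0 ± 2.0 CPM in TGF-beta (SD, n = 4).

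The HIF alpha subunits moved apart. Hif1a was at 163, 166, 190.5, 156 and 150.2 CPM in control and 265, 269, 251 and 178 CPM in TGF-beta, where PSC5 replicate 2 lay within the control range (log2 fold change 0.56 ± 0.14 (SE, adjusted p = 0.00493)). Epas1, which encodes HIF-2 alpha, was at 22.0, 37.1, 42.7, 17.7 and 23.9 CPM in control and 8.94, 9.06, 8.60 and 4.27 CPM in TGF-beta, without overlap. Its log2 fold change was -1.86 ± 0.57 (SE, adjusted p = 0.0165), and without TGF-beta PSC5 replicate 2, the lowest library, it was -1.69 with an adjusted p of 0.0505, above the threshold.

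Among the other HIF targets, Ankrd37, an ankyrin-repeat gene, was at 1.39, 0.715, 1.06, 0.646 and 0.992 CPM in control and 4.43, 2.53, 6.45 and 3.86 CPM in TGF-beta, without overlap (log2 fold change 2.17 ± 0.31 (SE, adjusted p = 7.18e-05)). Egln3 and Egln1 encode the prolyl hydroxylases PHD3 and PHD2, which mark HIF alpha subunits, and they rose by 2.09 ± 0.33 (SE, adjusted p = 0.000154) and 1.26 ± 0.18 (SE, adjusted p = 5.99e-05). Bnip3, a mitochondrial receptor for autophagy, rose by 1.63 ± 0.35 (SE, adjusted p = 0.00182), and its relative Bnip3l did not pass (0.11 ± 0.11 (SE, adjusted p = 0.459)). P4ha1, a collagen prolyl hydroxylase, rose by 1.07 ± 0.13 (SE) and Higd1a, a mitochondrial protein, by 1.26 ± 0.20 (SE). The histone demethylase Kdm3a (0.08 ± 0.10 (SE, adjusted p = 0.571)) and Ndrg1 (-0.00 ± 0.26 (SE, adjusted p = 0.998)) did not pass.

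Adm, which encodes the vasodilator peptide adrenomedullin, was the other target that fell. It was at 21.1, 28.6, 33.2, 19.2 and 16.3 CPM in control and 3.0, 0.975, 11.1 and 1.75 CPM in TGF-beta. The groups did not overlap, and PSC5 replicate 1 was nearest to control (log2 fold change -2.57 ± 0.61 (SE, adjusted p = 0.0038)). Adm was the member with the widest spread within TGF-beta, with an 11.4-fold ratio of the highest to the lowest library.

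**Figure D3:**
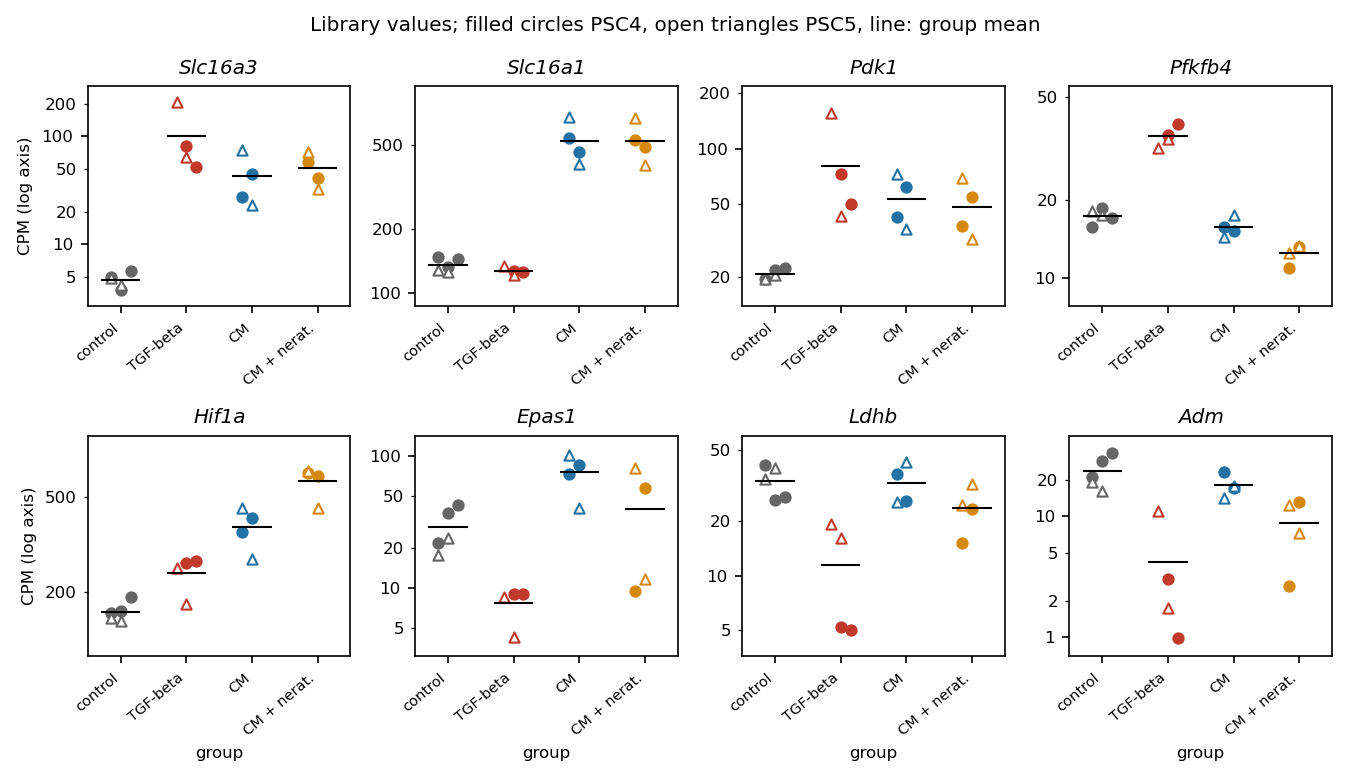
Points are library values in CPM on log axes for 8 members, by group, with filled circles for PSC4, open triangles for PSC5 and a line at each group mean. Slc16a3 is above all control libraries in every treated library, Slc16a1 is high in both CM groups and at the control level in TGF-beta, Hif1a rises in steps from control to CM with neratinib, and the neratinib libraries of Epas1 split into a high and a low pair.

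The next comparison asked how medium from tumour organoids changed the same genes. In CM, 22 of the 36 members rose and 0 fell, against 14.2% of all tested genes called, 7.05% as higher and 7.14% as lower. The same controls served both comparisons. Over the members the median log2 fold change was 0.66, and over all tested genes it was 0.00 to 2 decimals. Of the glycolytic enzymes 12 of 17 rose, and of the other HIF targets 5 of 10. CM and control libraries did not overlap for 24 members, against 19.8% of all tested genes. Without CM PSC5 replicate 1, the count was 16, and Gpi1, Pgk1, Eno1, Pdk1, Bnip3 and Higd1a were lost, with adjusted p-values between 0.0569 for Pgk1 and 0.135 for Higd1a. Without the 3 libraries labelled PSC4 replicate 1, Higd1a alone was lost (adjusted p = 0.0548).

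Slc16a3 again had the largest rise, to 27.7, 44.8, 74.6 and 23.2 CPM in CM (log2 fold change 3.11 ± 0.42 (SE, adjusted p = 0.000391)), and all 4 CM libraries were above all controls. Slc16a1, which did not pass with TGF-beta, was at 544, 467, 683 and 408 CPM in CM (log2 fold change 1.95 ± 0.15 (SE, adjusted p = 3.38e-06)). The lowest CM library had more than the highest control library, 147 CPM. The T8 libraries of CM, with 12 and 147 Krt8 counts, had 544 and 683 CPM of Slc16a1 and 27.7 and 74.6 CPM of Slc16a3. The T6 libraries, with 1233 and 1173 Krt8 counts, had 467 and 408 CPM and 44.8 and 23.2 CPM. A part of epithelial RNA in these values was not tested. Slc2a1 rose by 0.82 ± 0.17 (SE, adjusted p = 0.00605), and Slc2a3 did not pass (0.70 ± 0.32 (SE, adjusted p = 0.156)).

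Aldoc was the enzyme with the largest rise, at 4.65, 5.29, 6.96 and 4.29 CPM in CM, all above the control range (log2 fold change 1.97 ± 0.30 (SE, adjusted p = 0.001)). Pfkl rose by 1.18 ± 0.21 (SE, adjusted p = 0.00235) and Hk2, the inducible hexokinase that traps glucose, by 1.15 ± 0.17 (SE, adjusted p = 0.000835). Ldha rose by 0.93 ± 0.16 (SE, adjusted p = 0.00217), Tpi1, the triose phosphate isomerase, by 0.83 ± 0.17 (SE, adjusted p = 0.00641), Pgk1 by 0.81 ± 0.19 (SE, adjusted p = 0.0139) and Aldoa, the main aldolase, by 0.74 ± 0.14 (SE, adjusted p = 0.00409). Hk1, the housekeeping hexokinase, gave 0.01 ± 0.11 (SE, adjusted p = 0.96), Pfkp 0.24 ± 0.18 (SE, adjusted p = 0.434), Ldhb -0.09 ± 0.29 (SE, adjusted p = 0.86) and Eno2 -0.05 ± 0.09 (SE, adjusted p = 0.732), none past the threshold. Pfkm did not pass either (-0.22 ± 0.07 (SE, adjusted p = 0.0631)), but passed as lower with the replicate number as a block (adjusted p = 0.0273).

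Hif1a was at 356, 409.8, 451 and 275 CPM in CM, all above the control libraries (log2 fold change 1.20 ± 0.14 (SE, adjusted p = 0.000117)). Epas1 was at 73.4, 84.5, 101 and 40.4 CPM in CM, and CM PSC5 replicate 2 lay within the control range. It did not pass (log2 fold change 1.42 ± 0.52 (SE, adjusted p = 0.0831)), but passed with the replicate number as a block (adjusted p = 0.0249).

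Pdk1 rose by 1.34 ± 0.33 (SE, adjusted p = 0.017) with CM, and this was lost without CM PSC4 replicate 2 (adjusted p = 0.0568) or CM PSC5 replicate 1 (adjusted p = 0.0656). Pfkfb4 did not pass (-0.15 ± 0.09 (SE, adjusted p = 0.286)). Of the other HIF targets, Ankrd37 rose by 1.47 ± 0.31 (SE, adjusted p = 0.00694) and Kdm3a by 0.50 ± 0.10 (SE, adjusted p = 0.0059). Bnip3 rose by 1.19 ± 0.34 (SE, adjusted p = 0.0334), a call lost in 6 of the 9 fits that left out 1 library, among them CM PSC5 replicate 1 (adjusted p = 0.115) and control PSC5 replicate 1 (adjusted p = 0.08). Egln3 (0.61 ± 0.32 (SE, adjusted p = 0.238)) and Adm (-0.41 ± 0.54 (SE, adjusted p = 0.66)) did not pass. Bnip3l (0.34 ± 0.11 (SE, adjusted p = 0.0525)) and Egln1 (0.44 ± 0.18 (SE, adjusted p = 0.114)) did not pass, but passed with the replicate number as a block (adjusted p = 0.0132 and 0.0318). Of the 10 other HIF targets, 5 were called in the fit reported here, 7 with the block and 6 with DESeq2.

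CM and TGF-beta were then set against each other, which shows where the 2 media differed. Of the 36 members, 7 were higher and 12 lower in CM than in TGF-beta, against 35.3% of all tested genes called, 17.8% as higher and 17.5% as lower. The groups did not overlap for 14 members, against 31.5% of all tested genes. Epas1 (3.29 ± 0.61 (SE, adjusted p = 0.00067)), Adm (2.16 ± 0.61 (SE, adjusted p = 0.0127)), Slc16a1 (2.05 ± 0.16 (SE, adjusted p = 2.96e-07)) and Ldhb (1.66 ± 0.32 (SE, adjusted p = 0.000857)) had the largest differences toward CM, none with overlapping groups. Hif1a was higher in CM by 0.64 ± 0.15 (SE, adjusted p = 0.00329) and Kdm3a by 0.42 ± 0.11 (SE, adjusted p = 0.00683).

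Toward TGF-beta the largest were Pfkp (-1.48 ± 0.20 (SE, adjusted p = 4.07e-05)), Egln3 (-1.48 ± 0.34 (SE, adjusted p = 0.0036)), Slc16a3 (-1.22 ± 0.41 (SE, adjusted p = 0.0303)), Pfkfb4 (-1.16 ± 0.09 (SE, adjusted p = 3.20e-07)) and Slc2a3 (-1.13 ± 0.33 (SE, adjusted p = 0.0147)). The Slc16a3 difference was lost without TGF-beta PSC5 replicate 1 (-0.66, adjusted p = 0.169), TGF-beta PSC4 replicate 2 (0.0526), CM PSC4 replicate 1 (0.0792) or CM PSC5 replicate 2 (0.0886). It was also lost without the libraries labelled PSC4 replicate 1 (0.0734), as was that of Higd1a (0.0875). The Slc2a3 difference was lost without TGF-beta PSC5 replicate 1 (adjusted p = 0.0621). Egln1 (-0.82 ± 0.19 (SE, adjusted p = 0.00306)) and Hk1 (-0.70 ± 0.12 (SE, adjusted p = 0.000278)) were also lower in CM. Slc2a1 (0.06 ± 0.18 (SE, adjusted p = 0.838)), Ldha (-0.20 ± 0.17 (SE, adjusted p = 0.404)) and Bnip3 (-0.44 ± 0.36 (SE, adjusted p = 0.37)) did not pass.

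The enzymes and the other HIF targets were compared as classes by the median of their log2 differences from the control mean in each library. In TGF-beta the medians of the enzymes lay between 0.66 and 1.49 and those of the other HIF targets between 0.73 and 1.67, and the HIF targets had the higher median in 3 of 4 libraries. In CM the enzymes lay between 0.50 and 0.91 and the HIF targets between 0.29 and 0.70, and in CM with neratinib between 1.05 and 1.42 and between 0.67 and 1.01. The enzymes had the higher median in all 4 CM libraries and all 4 libraries of CM with neratinib. The control libraries lay between -0.15 and 0.10 for the enzymes and between -0.06 and 0.10 for the HIF targets. The difference between the classes was not tested, since members of a class are not replicates.

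**Figure D4:**
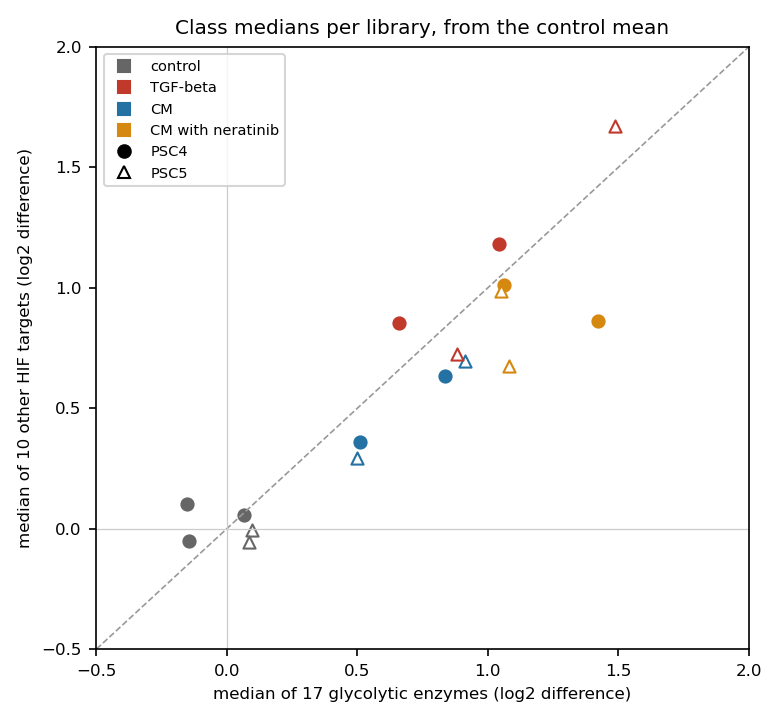
Each point is 1 library, with the median log2 difference from the control mean over the 17 glycolytic enzymes on the horizontal axis and over the 10 other HIF targets on the vertical axis, and a dashed line where both are equal. Of the TGF-beta libraries 3 lie above the line, and all CM and neratinib libraries lie below it. TGF-beta PSC5 replicate 1 is farthest from control at 1.49 and 1.67.

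One library carried most of the spread within TGF-beta. PSC5 replicate 1 was the highest of the 4 TGF-beta libraries for 31 of 36 members, for 16 of 17 enzymes and for all 10 other HIF targets. The ratio of the highest to the lowest library had a median of 2.35 over the other HIF targets and 1.78 over the enzymes in TGF-beta, and of 1.27 and 1.31 in control. Without that library the same 30 members were called. In CM, PSC5 replicate 1 was the highest for 26 members and PSC5 replicate 2 the lowest for 18. In control, PSC5 replicate 1 was the highest for 7 members.

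CM with neratinib was next compared with CM alone. No library had neratinib in control medium. Whether a difference between these groups depended on CM, or came from blocking ERBB receptors, was therefore not tested. Here 7 members rose and 2 fell, against 20.5% of all tested genes called, 10.8% as higher and 9.63% as lower. Libraries of these groups did not overlap for 12 members, against 18.7% of all tested genes. The glycolytic enzymes Hk2, Pfkp, Gapdh, Eno1 and Pkm, the importer Slc2a1 and Hif1a rose, and Eno2 and Pfkfb4 fell. Of the 10 other HIF targets, 0 were called in the fit reported here, with a median log2 fold change of 0.36 beside 0.42 for the enzymes. The count of 9 members was 16 with the replicate number as a block, 12 with DESeq2, 2 without the 3 libraries labelled PSC4 replicate 1 and 1 when only the libraries of both groups were fitted. It was 3 without CM PSC5 replicate 2, 3 without neratinib PSC4 replicate 1 and 4 without CM PSC4 replicate 1. The calls for Gpi1, Aldoa, Ldha, Egln1, P4ha1, Higd1a and Epas1 were gained with the block. Of the 10 other HIF targets, 3 were called with the block and 1 with DESeq2.

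Hif1a was at 632, 617, 648 and 452 CPM with neratinib, against 356, 409.8, 451 and 275 CPM in CM. The lowest neratinib library, 451.5 CPM, was just above the highest CM library, 450.8 CPM, and PSC5 replicate 2 was low in both (log2 fold change 0.65 ± 0.15 (SE, adjusted p = 0.00704)). Pfkp was at 30.9, 38.2, 38.2 and 31.2 CPM in CM and 79.0, 52.9, 44.7 and 48.4 CPM with neratinib, where PSC4 replicate 1 was the highest (log2 fold change 0.70 ± 0.19 (SE, adjusted p = 0.0207)). Without that library it was 0.48 (adjusted p = 0.0697), without CM PSC4 replicate 1 the adjusted p was 0.0653, and without CM PSC5 replicate 2 it was 0.0578.

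Eno1 was at 764, 946, 1117 and 773 CPM in CM and 1589, 1212, 1277 and 1339.8 CPM with neratinib, without overlap (log2 fold change 0.60 ± 0.15 (SE, adjusted p = 0.0138)). The Eno1 call was lost without the 3 libraries labelled PSC4 replicate 1 (adjusted p = 0.0831) and with only both groups fitted (adjusted p = 0.068). Eno2 moved the other way, from 65.4, 69.2, 55.9 and 60.3 CPM in CM to 50.7, 50.6, 45.4 and 35.9 CPM, without overlap (log2 fold change -0.46 ± 0.09 (SE, adjusted p = 0.00371)), and it was the 1 member called in every alternative fit. Pfkfb4 was at 15.8, 15.2, 14.5 and 17.6 CPM in CM and 10.9, 13.2, 12.6 and 13.3 CPM with neratinib, without overlap (log2 fold change -0.33 ± 0.09 (SE, adjusted p = 0.0199)). It was lost without CM PSC5 replicate 2 (adjusted p = 0.0685) or neratinib PSC4 replicate 1 (adjusted p = 0.0601).

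Hk2 (0.57 ± 0.18 (SE, adjusted p = 0.0383)), Gapdh (0.53 ± 0.14 (SE, adjusted p = 0.0193)), Pkm (0.44 ± 0.13 (SE, adjusted p = 0.0279)) and Slc2a1 (0.53 ± 0.18 (SE, adjusted p = 0.0477)) were each lost when neratinib PSC4 replicate 1 was left out, with adjusted p-values of 0.14, 0.0657, 0.0866 and 0.159. That library was the highest of its group for 13 of the 17 enzymes, and its label is among those whose libraries deviated with PSC5. It held 0 counts of Krt8 and the most of Cd68, whose part in the result was not tested. Without the 3 libraries labelled PSC4 replicate 1 the calls for Hk2, Pfkp, Gapdh, Pkm, Slc2a1 and Pfkfb4 were lost, with adjusted p-values of 0.0592, 0.133, 0.119, 0.172, 0.255 and 0.0649, and Hif1a and Eno2 kept theirs (adjusted p = 0.0423 and 0.0084). When only the libraries of both groups were fitted, the Hif1a call was lost too, and Eno2 alone kept its call. Hk2, Gapdh, Pkm and Slc2a1 were also lost without CM PSC4 replicate 1 (adjusted p = 0.0618, 0.0607, 0.0905 and 0.13) and without CM PSC5 replicate 2 (0.112, 0.0608, 0.0857 and 0.134).

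Neither lactate transporter passed the test against CM, with log2 fold changes of -0.00 ± 0.15 (SE, adjusted p = 0.993) for Slc16a1 and 0.29 ± 0.40 (SE, adjusted p = 0.657) for Slc16a3. Slc16a1 was at 532, 489, 674 and 402 CPM with neratinib. Slc16a3 was at 58.1, 41.4, 72.4 and 32.9 CPM with neratinib, against 27.7, 44.8, 74.6 and 23.2 in CM. Ldha (0.37 ± 0.17 (SE, adjusted p = 0.137)) did not pass, but passed with the block (adjusted p = 0.0499). Bnip3 (0.43 ± 0.36 (SE, adjusted p = 0.431)) and Egln3 (0.52 ± 0.34 (SE, adjusted p = 0.298)) did not pass. Epas1 split the neratinib libraries into a pair at 9.40 and 11.7 CPM, PSC4 replicate 1 and PSC5 replicate 2, and a pair at 56.6 and 80.4 CPM, PSC4 replicate 2 and PSC5 replicate 1. The low pair was also lowest of the group for the stellate marker Pdgfrb (103 and 139 CPM, against 341 and 390 in the other pair), for Col1a1 (422 and 793 CPM, against 1045 and 1670) and for the member Adm (2.64 and 7.28 CPM, against 13.0 and 12.4). For the stellate marker Vim the same pair was the highest (1032 and 1167 CPM, against 907 and 736). The part of these differences in the result was not tested. Each pair held 1 library of each line and 1 of each medium code, and the fitted difference from CM did not pass (-0.90 ± 0.55 (SE, adjusted p = 0.269)), with an adjusted p of 0.0495 with the block and 0.0248 without neratinib PSC5 replicate 1.

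Against control, CM with neratinib had 25 members higher and 3 lower, beside 43.1% of all tested genes called, 22.2% as higher and 20.9% as lower. The groups did not overlap for 29 members, against 29.4% of all tested genes. The median log2 fold change was 1.17 over the enzymes and 0.90 over the other HIF targets. Slc16a3 (3.40 ± 0.42 (SE, adjusted p = 3.85e-05)), Slc16a1 (1.95 ± 0.15 (SE, adjusted p = 8.64e-07)) and Hif1a (1.85 ± 0.14 (SE, adjusted p = 8.64e-07)) had the largest rises. They were followed by Hk2 (1.72 ± 0.17 (SE, adjusted p = 7.22e-06)), Ankrd37 (1.63 ± 0.31 (SE, adjusted p = 0.000849)) and Bnip3 (1.62 ± 0.34 (SE, adjusted p = 0.00191)). Slc2a1 (1.34 ± 0.17 (SE, adjusted p = 3.96e-05)), Ldha (1.30 ± 0.16 (SE, adjusted p = 3.85e-05)) and Egln3 (1.13 ± 0.32 (SE, adjusted p = 0.0118)) rose as well, and Epas1 did not pass (0.53 ± 0.53 (SE, adjusted p = 0.439)).

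The members that fell were Eno2 (-0.52 ± 0.09 (SE, adjusted p = 0.000413)), Pfkfb4 (-0.48 ± 0.09 (SE, adjusted p = 0.000662)) and Pfkm (-0.23 ± 0.07 (SE, adjusted p = 0.0211)). Pfkm was at 79.6, 65.3, 65.7, 86.0 and 86.6 CPM in control and 61.6, 61.7, 68.5 and 72.5 CPM with neratinib, with overlapping groups, and was lost without control PSC5 replicate 1 (adjusted p = 0.0521) or control PSC5 replicate 2 (adjusted p = 0.0503), and without the libraries labelled PSC4 replicate 1 (adjusted p = 0.0594). Adm was at 2.64, 13.0, 12.4 and 7.28 CPM with neratinib, all below the control range. It did not pass (log2 fold change -1.45 ± 0.57 (SE, adjusted p = 0.0503)), but passed with the replicate number as a block (adjusted p = 0.0351).

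Because several members are isoforms of 1 enzyme, their shares of the family were computed from counts per exon length. A family here holds only members, and isoforms outside the member list were left out. Among these was the enolase Eno3, with 10885 counts over all libraries on 1739 bases of exon, beside 25654 on 4705 bases for Eno2. These shares are descriptions that use the same counts as the tests above. Length was that of all annotated exons of a gene joined, 13401 bases for Pfkp, 6675 for Pfkl and 3340 for Pfkm. It was not that of the transcripts made, so the size of a share depends on annotation. In CPM without length, control had 90.8 for Pfkl, 76.7 for Pfkm and 29.4 for Pfkp. Of phosphofructokinase, Pfkm made up 59.0% ± 4.13 (SD, n = 5) in control and 38.3% ± 5.36 (SD, n = 4) in TGF-beta, while Pfkl went from 35.3% ± 3.53 to 50.7% ± 5.50. In CM the shares were 37.9% ± 7.10 for Pfkm and 57.3% ± 7.20 for Pfkl, and with neratinib 32.1% ± 4.40 and 61.1% ± 4.61 (SD, n = 4 each). All treated libraries had a Pfkl share above the highest control library, 40.2%. Pfkp had 5.70% ± 0.87 in control, 10.9% ± 1.25 in TGF-beta, 4.83% ± 0.25 in CM and 6.82% ± 1.98 with neratinib.

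The lactate dehydrogenase pair was 16.4% ± 1.10 Ldhb in control (SD, n = 5), and 2.84% ± 1.54 in TGF-beta, 9.47% ± 3.57 in CM and 5.50% ± 1.96 with neratinib (SD, n = 4 each). The lowest control library had 15.2%, and the highest treated library, in CM, had 13.4%. Hk2 had 31.6% ± 1.36 of the hexokinase pair in control and 33.0% ± 3.51 in TGF-beta, where the groups overlapped. In CM it had 50.4% ± 4.34 and with neratinib 55.5% ± 4.19, with no library of either group under 46.6%. Slc16a3 had 2.81% ± 0.35 of the lactate transporter pair in control, 36.9% ± 13.5 in TGF-beta, 6.08% ± 2.10 in CM and 7.38% ± 1.03 with neratinib. Eno2 had 11.5% ± 2.58 of the enolase pair in control, 4.17% ± 1.34 in TGF-beta, 7.56% ± 1.51 in CM and 3.74% ± 0.67 with neratinib.

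**Figure D5:**
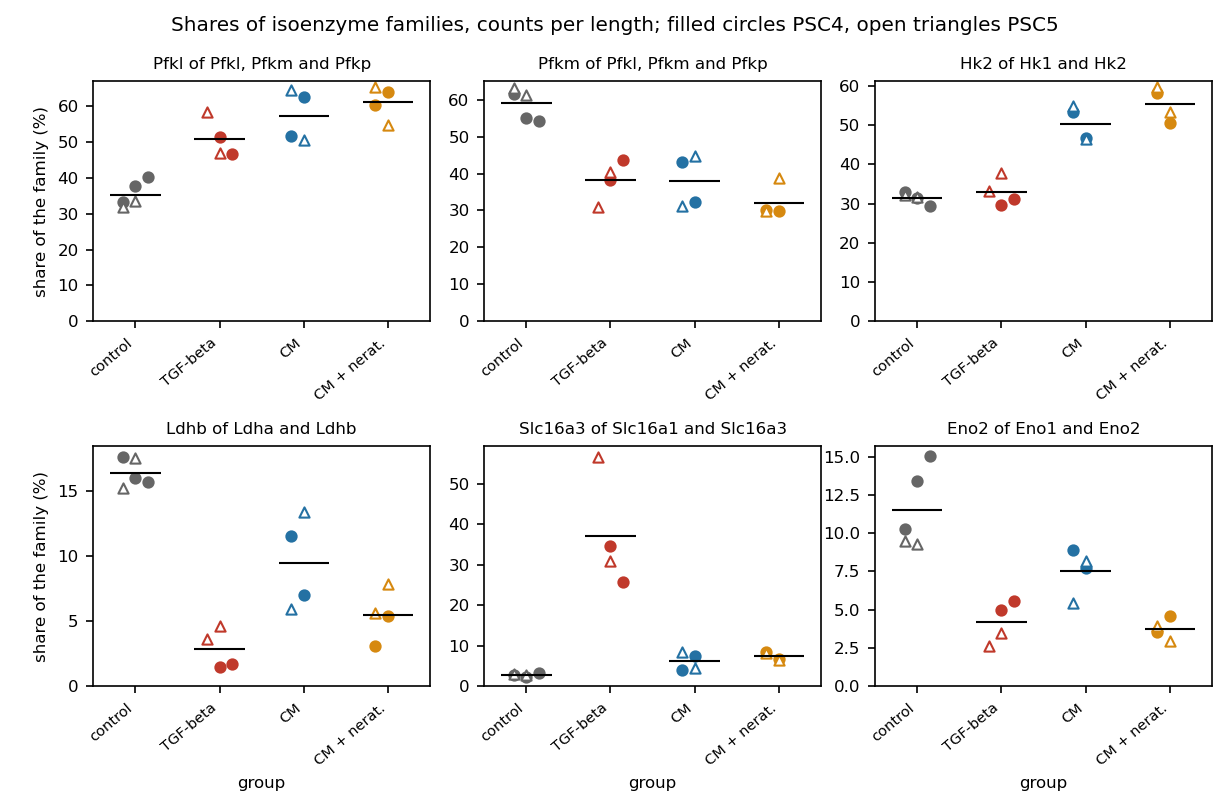
Points are the share of 1 isoform among the members of its family (percent, counts per exon length) in each library, by group, with filled circles for PSC4, open triangles for PSC5 and a line at the group mean. Pfkl shares are at least 46.5% in all treated libraries, Ldhb shares are below the control range in all treated libraries, and the Slc16a3 share is at least 25.8% in the TGF-beta libraries and at most 8.34% in all others.

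Whether the lines responded differently was tested with a term for the interaction of group and line. By edgeR 0 members were called for TGF-beta, CM or neratinib, and 0 by DESeq2. Of all 13923 tested genes, 0 were called by edgeR as well. With so few libraries of each line per group, this does not show that the lines responded alike. At an unadjusted p under 0.05 there were 2 members for TGF-beta, Eno2 and Ldhb (3 by DESeq2), and 0 for CM and for neratinib by either tool, against 4.32%, 0.309% and 1.70% of all tested genes by edgeR. The lowest adjusted p for a member was 0.749 for TGF-beta and 1.00 for CM and neratinib. The fitted effect had the same sign in both lines for 32, 35 and 33 of the 36 members.

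Other genes of the pathway were taken from lists that hold no member. Of all tested genes, 40.2% were called for TGF-beta, 14.2% for CM and 20.5% for neratinib against CM. Of 44 further genes of glycolysis and pyruvate use, 30 were tested, and TGF-beta raised 10 and lowered 8, with a median log2 fold change of -0.06. Emb, a partner protein of lactate transporters, rose by 1.21 ± 0.21, and Pgm1, a phosphoglucomutase of glycogen metabolism, by 1.17 ± 0.21 (SE). Pdp1, the phosphatase that turns pyruvate dehydrogenase on, fell with a log2 fold change of -0.999 ± 0.156, and Pdk4, a kinase that turns it off, with -0.99 ± 0.20 (SE). In CM, 3 of these genes rose and 3 fell, with Pgm1 (0.78 ± 0.21), Slc2a6 (0.58 ± 0.12), Pdk4 (-0.90 ± 0.20) and Pdp1 (-0.63 ± 0.15) as the largest with at least 5 CPM. The call for Pgm1 was lost without CM PSC4 replicate 2, CM PSC5 replicate 1, control PSC5 replicate 1 or control PSC5 replicate 2 (adjusted p = 0.0577 to 0.0937), and that for Pdp1 without CM PSC5 replicate 1 (adjusted p = 0.0569).

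Of 65 further HIF pathway genes and targets, 61 were tested. TGF-beta raised 26 and lowered 12, with a median of 0.19, against 40.2% of all tested genes called. The transcriptional repressors Bhlhe41 (3.16 ± 0.24) and Bhlhe40 (2.09 ± 0.18) rose most, and Nrn1 (-1.72 ± 0.32) and the phosphatase gene Dusp1 (-1.43 ± 0.14) fell most. CM raised 18 and lowered 4, with a median of 0.20, against 14.2% of all tested genes called. The inducible nitric oxide synthase Nos2 (3.76 ± 0.95) and the metallothionein Mt2 (2.14 ± 0.21) rose most, and Ppp1r3c (-1.54 ± 0.46), a subunit that targets a phosphatase to glycogen, and Bhlhe41 (-1.09 ± 0.26) fell most. The Nos2 call was lost without CM PSC4 replicate 2, CM PSC5 replicate 1, control PSC5 replicate 1 or control PSC5 replicate 2 (adjusted p = 0.0503 to 0.0794), and the Ppp1r3c call in 7 of the 9 fits that left out 1 library, all but those without CM PSC4 replicate 2 and control PSC4 replicate 1 (adjusted p = 0.0548 to 0.117). Bhlhe41 was lower in CM than in TGF-beta by the direct test (-4.25 ± 0.28, SE, adjusted p = 7.10e-08). Neratinib raised 13 and lowered 3 of these genes against CM, beside 20.5% of all tested genes called. With the replicate number as a block 28 were called in place of 16. The haem oxygenase Hmox1 (2.26 ± 0.30) and the transaminase Gpt2 (1.64 ± 0.10) rose most, and Errfi1 (-1.19 ± 0.13), a feedback inhibitor of ERBB receptors, and Insig2 (-0.63 ± 0.17) fell most. The Insig2 call was lost without CM PSC4 replicate 1, neratinib PSC4 replicate 1 or neratinib PSC5 replicate 2 (adjusted p = 0.0533 to 0.0621), and without all 3 libraries labelled PSC4 replicate 1 (adjusted p = 0.118).

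Of 14 genes of the pentose phosphate pathway, which makes NADPH and ribose from glucose, 11 were tested. The shares of all tested genes called were 40.2% for TGF-beta, 14.2% for CM and 20.5% for neratinib against CM. TGF-beta raised 1, Tkt (0.55 ± 0.07), and lowered 2, Prps2 (-0.51 ± 0.12) and H6pd (-0.48 ± 0.16). The H6pd call was lost in 5 of the 9 fits that left out 1 library, those without TGF-beta PSC4 replicate 3, TGF-beta PSC5 replicate 2, control PSC4 replicate 2, control PSC4 replicate 3 or control PSC5 replicate 1 (adjusted p = 0.0502 to 0.089), and 5 genes were called in place of 3 with the replicate number as a block. In CM 1 gene was called, Tkt (0.43 ± 0.07), and 2 were with the block, with DESeq2 and without the libraries labelled PSC4 replicate 1, H6pd being the second (adjusted p = 0.000883, 0.0298 and 0.0254). Neratinib against CM raised 3 and lowered 0, Taldo1 (0.58 ± 0.19), Pgd (0.55 ± 0.16) and G6pdx (0.38 ± 0.07). Without the libraries labelled PSC4 replicate 1 the calls for Taldo1 (adjusted p = 0.162) and Pgd (adjusted p = 0.10) were lost. Taldo1 was lost in 6 of the 8 fits that left out 1 library (adjusted p = 0.0688 to 0.178) and Pgd in 5 (adjusted p = 0.0595 to 0.0843), neratinib PSC4 replicate 1 among them for both.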

How the data were processed

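RNA of 17 libraries was made into mRNA libraries, per the labels. The authors deposited 1 file of expected counts by Ensembl gene ID for each library, estimated with Salmon 1.4.0 against GRCm38 (mm10), per the submitters' processing notes, which also name DESeq 2. They are not scaled to depth or length. Of the values above 0, 74.8% were not whole, and all were rounded, a change of no more than 307.9 counts in any library total. The files listed 35896 IDs, of which 35437 matched a symbol in GENCODE M21 (GRCm38). Aldoa matched 2 IDs, and the one with nearly all reads was used.

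The members, their classes, the gene lists, the tests and the alternatives were chosen with earlier results of these data known. All 17 libraries were fitted together with edgeR 4.0.16 (R 4.3.3; TMM factors, filterByExpr by group, terms for group and line, quasi-likelihood test), which left 13923 genes with a common biological variation of 19.8%. Adjustment was Benjamini-Hochberg over these genes at 0.05. The comparison of CM with TGF-beta was added after values were seen. CPM are counts scaled to equal TMM-corrected totals, which puts 3 counts near 0.1 CPM, so depth limited few members. The SE is the log2 fold change over the root of the F statistic. Alternatives were DESeq2 1.42.0, RLE and upper-quartile factors, no filter, fitting 2 groups alone, the replicate number as a block, PSC4 replicate 1 treated as PSC5 or left out, and leaving out each library. The scripts were tested on simulated data.

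The replicate numbers pair the samples: same-numbered libraries of a line share a passage per the labels, and over all tested genes the deviations from the group means correlated in all 22 such pairs (0.120 to 0.635, median 0.299). In the 32 pairs of a line with other numbers the values were -0.536 to 0.613 (median -0.076), with 14 above 0.1. The fit reported above left this pairing out, and the block took it in. With the block, 16 members in place of 9 were called for neratinib against CM. For CM against control it was 26 in place of 22, and for TGF-beta 30 in both.

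The text gives, per comparison, up to 12 called members by size of change, always Hif1a, Epas1, Slc2a1, Ldha, Bnip3 and Egln3, and isoform pairs with all groups. From the other lists it gives at most 2 called genes each way with at least 5 CPM in the higher group. Library values were given in full for the 3 largest rises and falls. Members named beyond this rule were chosen after their values were seen.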

Additional observations from a re-analysis of the deposited data

Results flagged for a closer look

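In each of 144 groups of 4 or 5 libraries (36 members in 4 groups), the library at either end was compared with the range of its group by Dixon's ratio, and 11 stood apart. Chance flags about 1 in 20 groups.

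Of these, 4 were in TGF-beta. Aldoc was at 13.1 CPM in PSC5 replicate 1, against 3.66 to 4.77 in the others, and Bnip3l at 159.8 CPM in the same library, against 106.5 to 114. Below the others stood PSC5 replicate 2, with 6.10 CPM of Slc2a3 against 13.4 to 14.1, and 4.27 CPM of Epas1 against 8.60 to 9.06.

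In CM with neratinib 6 stood apart, of which 3 were PSC4 replicate 1. That library had 149.6 CPM of Hk1, against 114 to 119.6 in the others, 957 CPM of Aldoa, against 760.2 to 772, and 233 CPM of Ndrg1, against 122 to 132. Aldoc was at 4.02 CPM in PSC5 replicate 1, against 3.02 to 3.19, and Slc2a3 at 5.80 CPM in PSC4 replicate 2, against 4.67 to 4.68. Hif1a was at 451.5 CPM in PSC5 replicate 2, below the others at 617 to 648.

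In control, Bnip3l was at 100.6 CPM in PSC4 replicate 2, below the others at 112 to 116. No CM library stood apart for any member.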

How the results depend on the processing

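The count of called members stayed within 1.5 times its value under every alternative for 4 of the 5 comparisons. For TGF-beta against control it was 30 in all alternatives without a left-out library, with the same 30 members, and 29 to 30 when 1 library was left out. For CM against control it was 21 to 26, and 16 to 23 with 1 library left out. For CM with neratinib against control it was 27 to 29 with 1 library left out, and for CM against TGF-beta 17 to 20. For CM with neratinib against CM the count of 9 became 1 when only the libraries of both groups were fitted, 16 with the replicate number as a block and 2 without the 3 libraries labelled PSC4 replicate 1, and was 3 to 10 with 1 library left out. Fitting fewer libraries leaves fewer degrees of freedom, and otherwise the cause was not tested. The block moved no other count over the 36 members by more than 1.5 times, and of the further lists it moved the HIF pathway genes called for neratinib against CM from 16 to 28 and the pentose phosphate genes called from 3 to 5 for TGF-beta and from 1 to 2 for CM. The interaction of group and line called 0 members in every alternative.

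Values near 0 changed sign under some settings, and none of them was called in the fit reported above. For TGF-beta against control, Ndrg1 gave a log2 fold change of 0.0119 with DESeq2, 0.0117 with RLE factors, 0.0103 with the block and 0.000681 with no filter, and it gave 0.00690 and 0.00700 when PSC4 replicate 1 was left out or counted as PSC5. For CM against control, Hk1 gave -0.0361 with upper-quartile factors, -0.0258 with the block and -0.00160 with PSC4 replicate 1 counted as PSC5. For neratinib against CM, Pfkfb3 gave -0.00993 with the block, and without the PSC4 replicate 1 libraries Pfkm gave 0.0172 and Slc16a1 0.00718. Ndrg1 gave -0.0672 for neratinib against control without these libraries, and Slc2a1 -0.0142 for CM against TGF-beta with the block.

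With 1 library left out, log2 fold changes for TGF-beta against control ranged from -0.0222 to 0.175 for Bnip3l and from -0.41 to 0.16 for Ndrg1. For CM against control the ranges were -0.0222 to 0.0474 for Hk1, -0.31 to 0.0848 for Ldhb and -0.20 to 0.00141 for Ndrg1. For neratinib against CM they were -0.0544 to 0.0171 for Pfkm, -0.23 to 0.0333 for Slc2a3, -0.16 to 0.16 for Slc16a1, -0.20 to 0.28 for Pfkfb3 and -0.33 to 0.0408 for Pdk1. For neratinib against control they were -0.0941 to 0.31 for Ndrg1 and -0.23 to 0.93 for Epas1. For CM against TGF-beta they were -0.27 to 0.15 for Pfkl, -0.40 to 0.35 for Aldoc, -0.66 to 0.16 for Bnip3, -0.27 to 0.31 for Ndrg1 and -0.10 to 0.23 for Slc2a1.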
